A study of Mus musculus with 12 samples.

Results

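Catalase, the product of the gene Cat, breaks down hydrogen peroxide in peroxisomes and can also oxidise ethanol to acetaldehyde. The comparison described here asks whether the transcript response of bone to binge ethanol depended on catalase: the ethanol change in mice lacking catalase minus the ethanol change in wild-type mice. This difference of differences, called the interaction below, used all 12 libraries of the series and was computed for every gene tested. All mice were males of 12 weeks on regular chow, with the genotype Cat +/+ (wild type) or Cat -/- (knockout). Neither the strain nor the way the Cat allele was made is stated in the sources used here. Ethanol was given by gavage on 4 consecutive days, as a 31.5% (v/v) solution, with 3 g per kg on each of the first 2 days, 4 g on the next and 4.5 g on the last. Controls received the same volumes of phosphate-buffered saline (PBS). Femurs were taken 6 hours after the last gavage, and the shafts were freed of marrow by centrifugation before RNA was extracted. Each library was made from RNA of 2 mice combined, so p-values measure the spread between such pools. The 4 groups had 3 libraries each, numbered as in the labels. Libraries 1 to 3 were knockout and 7 to 9 wild type after PBS, and 4 to 6 were knockout and 10 to 12 wild type after ethanol.

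The femoral shaft holds osteocytes embedded in the matrix, osteoblasts that make bone and osteoclasts that resorb it. Cells under amino acid shortage, endoplasmic reticulum stress or mitochondrial stress make the transcription factor ATF4, which switches on genes for amino acid transport and synthesis and for one-carbon metabolism in mitochondria. Osteoclasts form by fusion of myeloid precursors and secrete acid and proteases such as cathepsin K. Muscle fibres left on the shaft add their own RNA to a bone library, and in bulk RNA fewer cells of a type and less RNA per cell cannot be told apart.

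Library totals ran from 19950222 to 28789308 counts. The 18 skeletal muscle genes used to follow muscle RNA took 3.39%, 3.81% and 4.10% of the counts in libraries 8, 9 and 12, and 0.154% to 2.15% in the other libraries. All 3 high libraries were wild type, 2 with PBS and 1 with ethanol. The median within-group SD of log2 CPM (a count scaled by library size and TMM factor) was 0.0951 and 0.108 in the knockout groups and 0.179 and 0.172 in the wild-type groups, PBS first. Over all genes tested, ethanol and PBS libraries did not overlap for 16.4% in wild type and 32.3% in the knockout. Osteoblast, osteocyte and osteoclast genes were present in every group, and so were neutrophil genes (2.28% to 3.99% of counts) and erythroid genes (1.11% to 2.29%).

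No gene showed an ethanol change that differed between the genotypes past the threshold. Of 18161 genes tested, 0 (0%) had an adjusted p under 0.05 for the interaction in edgeR's quasi-likelihood test, and the smallest adjusted p was 0.999985. Before adjustment 359 genes (1.98%) had a p under 0.05, of which 167 had a higher change in the knockout and 192 a lower one, where 5% of the genes would be 908. limma-voom called 0 genes (402 with an unadjusted p under 0.05) and limma-trend 0 (362). With 1 library left out edgeR called 0 genes each time, and the number with an unadjusted p under 0.05 ran from 268 to 866, with 866 (4.71%) without library 7 and 819 (4.42%) without library 12. It was 877 (4.83%) in limma-voom with quality weights and 1087 (5.69%) in edgeR without the 3 libraries highest in muscle. DESeq2 called 1, the immunoglobulin segment Igkv6-25 (1.93 log2, DESeq2 adjusted p 0.0364), which edgeR placed at 1.94 without calling it. The gene was looked up after its call was seen. The 95% interval of an interaction reached, in the median, 0.43 log2 to either side of the estimate over all genes and 0.28 over the 10650 genes with a mean of at least 10 CPM. These are intervals of single genes, and the adjusted threshold is stricter, so the absence of calls does not exclude larger differences either.

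Most of the ethanol response had the same direction in both genotypes. Ethanol changed 229 genes (1.26%) in wild type and 339 (1.87%) in the knockout at an adjusted p under 0.05 in edgeR, and 117 of these were called in both. Of the 229 genes called in wild type, 226 (98.7%) changed in the same direction in the knockout, whose own ethanol difference was not used in that choice. The knockout change was a median of 0.82 times the wild-type change. Of the 339 genes called in the knockout, 335 (98.8%) had the same direction in wild type, and the wild-type change was a median of 0.74 times the knockout change. Over all genes tested, 73.4% had the same direction, and the changes in the 2 genotypes had a Pearson correlation of 0.486, taken over genes as points, which share the same libraries. A ratio under 1 on both sides accompanies the choice of genes on one genotype, so neither genotype can be read as the stronger responder from it. Averaged over genotype, edgeR called 1967 genes (10.8%). Of these the knockout change was the larger in 1059 (53.8%), and 73 (3.71%) had an unadjusted interaction p under 0.05. Genes chosen on the average tend to have the same sign in both genotypes through that choice, so their signs are not counted here. Counts within a genotype depended strongly on the model: fitted on its own 6 libraries, wild type gave 4 called genes and the knockout gave 1677. With 1 library left out, the wild-type count ran from 35 to 320 and moved by over 1.5 times for every library except 6 and 7. The knockout count ran from 52 to 568 and moved that far without any of libraries 1 to 6 or 12, and the averaged count ran from 1040 to 2152 and moved that far without library 1, 2, 3 or 6.

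Among the shared changes, Fat3, which encodes an atypical cadherin, stood at 38.5, 38.9 and 33.8 CPM in wild type with PBS and at 9.82, 13.01 and 8.79 CPM with ethanol. In the knockout it went from 39.9, 49.97 and 50.8 CPM to 12.3, 13.9 and 7.96 CPM. Ethanol and PBS libraries did not overlap in either genotype, and Fat3 fell by 1.81 log2 in wild type (SE 0.20, edgeR adjusted p 0.00937) and by 2.04 log2 in the knockout (SE 0.20, adjusted p 0.00304). Adamts18, a secreted metalloprotease, fell by 2.19 and 2.08 log2. The metallothionein Mt2, which binds zinc and copper and is induced by glucocorticoids, rose by 1.73 and 1.99 log2. Cyp26b1, which degrades retinoic acid, rose by 1.72 and 1.69 log2, and the sodium-activated potassium channel gene Kcnt1 by 1.77 and 1.95 log2, wild type first in each. All of these were called in both genotypes. The calls of Fat3 and Adamts18 in both genotypes, and of Mt2 and Kcnt1 in the knockout, were kept when any single library was left out. The wild-type calls were lost without library 8, 9 or 11 for Mt2, without library 9 for Kcnt1 and without library 2, 8, 9 or 11 for Cyp26b1. The knockout call of Cyp26b1 was lost without library 2 or 3. In limma-voom with quality weights the wild-type calls of Mt2, Kcnt1 and Cyp26b1 were lost too.

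Some shared changes had a larger estimate in the knockout. Panx3, which forms pannexin channels in bone and cartilage cells, went from 3.99, 6.41 and 4.49 CPM to 2.12, 2.86 and 1.63 CPM in wild type and from 6.51, 6.70 and 6.32 CPM to 1.90, 1.64 and 1.31 CPM in the knockout. All ethanol libraries lay below all PBS libraries of their genotype, and the interaction was -0.84 (SE 0.32, unadjusted edgeR p 0.0238). Slc6a2, the noradrenaline transporter, had an interaction of -0.99 (SE 0.49), and Mettl21b, a lysine methyltransferase, one of -0.87 (SE 0.41). Both fell in each genotype. With 1 library left out, the wild-type calls held only without library 6 or 7 for Panx3, 5, 6 or 7 for Slc6a2 and 5 or 6 for Mettl21b, and the knockout calls of all 3 held in each of the 12 fits. Calca, the precursor of calcitonin and of the neuropeptide CGRP, rose in both genotypes, by 2.98 log2 in wild type and 3.69 log2 in the knockout, with an interaction of 0.71 (SE 0.82) that ran from 0.34 without library 11 to 1.30 without library 12, and was 0.35 without library 9. Its PBS libraries held only 0.0994 to 0.370 CPM, and its call was lost without any of libraries 1, 2, 3, 7, 8, 9 and 10 in wild type and 1, 2 and 3 in the knockout.

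**Figure D1:**
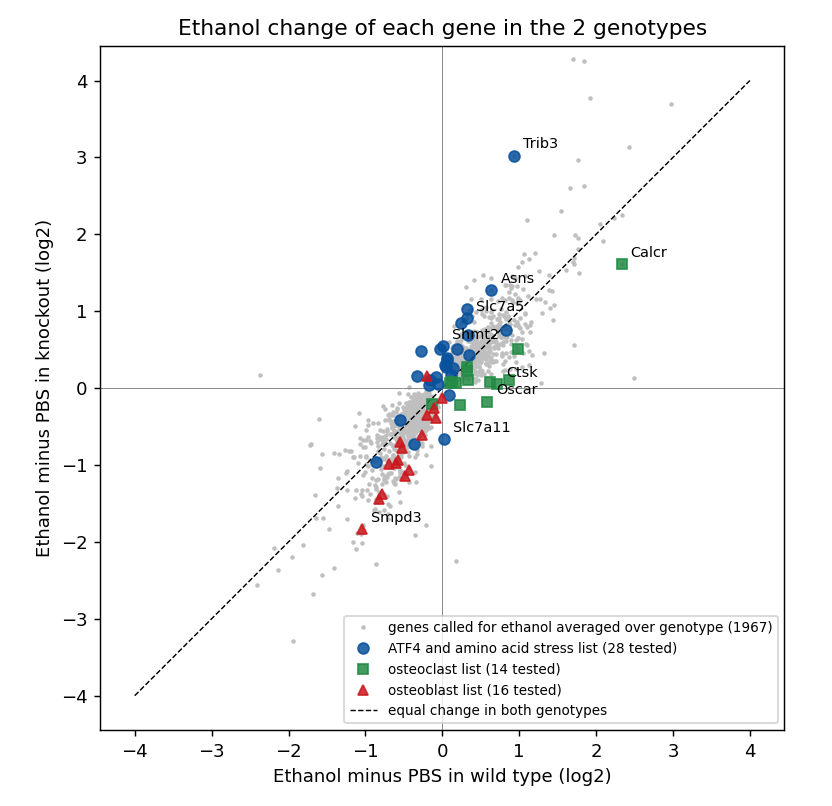
Ethanol minus PBS (log2) in wild type on the x axis and in the knockout on the y axis, 1 point per gene. Grey points are the 1967 genes called for ethanol averaged over genotype, coloured points are all tested members of 3 gene lists whether called or not, and the dashed line marks equal change. Genes chosen on the average tend to have the same sign in both genotypes through that choice. Of the 28 ATF4 genes, 23, among them Trib3, lie above the dashed line and 5 below it, and all 14 osteoclast genes lie below it.

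Genes of the ATF4 and amino acid stress response were prominent among those with a higher change in the knockout when ranked by unadjusted p, though the mitochondrially encoded and oxidative phosphorylation lists had higher medians. Trib3 (GRCm38 chr2:152337422-152344032), a pseudokinase gene induced by ATF4 and its partner CHOP, had 1.05, 1.77 and 1.65 CPM in the knockout with PBS and 10.9, 8.95 and 16.6 CPM with ethanol. In wild type it had 1.33, 2.88 and 1.99 CPM with PBS and 4.29, 2.96 and 4.53 CPM with ethanol. All knockout ethanol libraries lay above all others, and within wild type the ethanol libraries lay above the PBS libraries by a narrow margin. Trib3 rose by 3.02 log2 in the knockout (SE 0.33, edgeR adjusted p 0.00358), a call kept when any library was left out. The wild-type difference was 0.93 (SE 0.32, adjusted p 0.187). The interaction was 2.09 log2 (SE 0.45, 95% interval 1.10 to 3.09). Its unadjusted p of 0.000705 ranked 2 among all genes, and after adjustment it did not pass. The estimate lay between 1.57 and 2.34 in the 23 alternatives compared, the lowest without the 3 libraries highest in muscle.

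Asns (GRCm38 chr6:7675169-7693254), which encodes asparagine synthetase, went from 44.0, 38.9 and 43.0 CPM to 106, 89.2 and 109 CPM in the knockout. In wild type it went from 39.7, 43.8 and 37.4 CPM to 77.2, 60.1 and 50.8 CPM. Ethanol libraries lay above PBS libraries in both genotypes, with the 3 knockout ethanol libraries highest. It rose by 1.27 log2 in the knockout (SE 0.14, edgeR adjusted p 0.00358) and by 0.64 log2 in wild type (SE 0.14, adjusted p 0.0494), and its interaction was 0.63 (SE 0.19, 95% interval 0.21 to 1.05). With 1 library left out, the wild-type call was kept only without library 12, and the knockout call in all 12 fits.

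Shmt2 (chr10:127517123-127522444) and Mthfd2 (chr6:83305691-83325908) encode mitochondrial enzymes of the folate pathway that carry one-carbon units from serine. Shmt2 went from 57.1, 59.8 and 61.4 CPM to 95.8, 76.2 and 87.6 CPM in the knockout, and from 60.9, 69.4 and 61.4 CPM to 67.7, 66.1 and 58.8 CPM in wild type. Only the knockout libraries separated by gavage. Over all genes, libraries separated for 32.3% in the knockout and 16.4% in wild type. The interaction of Shmt2 was 0.53 (SE 0.13, 95% interval 0.26 to 0.81). Mthfd2 had an interaction of 0.59 (SE 0.17), with a knockout rise of 0.84 log2 and a wild-type difference of 0.25. The rise was called in the knockout for both genes. The Shmt2 call was lost without library 1, 2, 3 or 6, and the Mthfd2 call without library 2. Slc7a5 (chr8:121881150-121907694), the light chain of a transporter of large neutral amino acids, went from 80.1, 76.1 and 78.8 CPM to 148, 132 and 162 CPM in the knockout. In wild type it went from 72.5, 69.7 and 74.6 CPM to 101, 97.7 and 71.3 CPM, where library 12 lay within the PBS range. The interaction was 0.59 (SE 0.16), and the heavy chain of the same transporter, Slc3a2, had one of 0.31. Ddit3 (chr10:127290774-127296288), which encodes CHOP, had 27.8, 24.8 and 27.8 CPM in the knockout with PBS and 35.1, 35.9 and 43.2 CPM with ethanol. Its 6 wild-type libraries overlapped, from 23.9 to 29.8 CPM, and its interaction was 0.54 (SE 0.15). The knockout call of Ddit3 was lost without library 11 or any of 1 to 6, that of Slc3a2 without library 2, and that of Slc7a5 in no such fit.

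**Figure D2:**
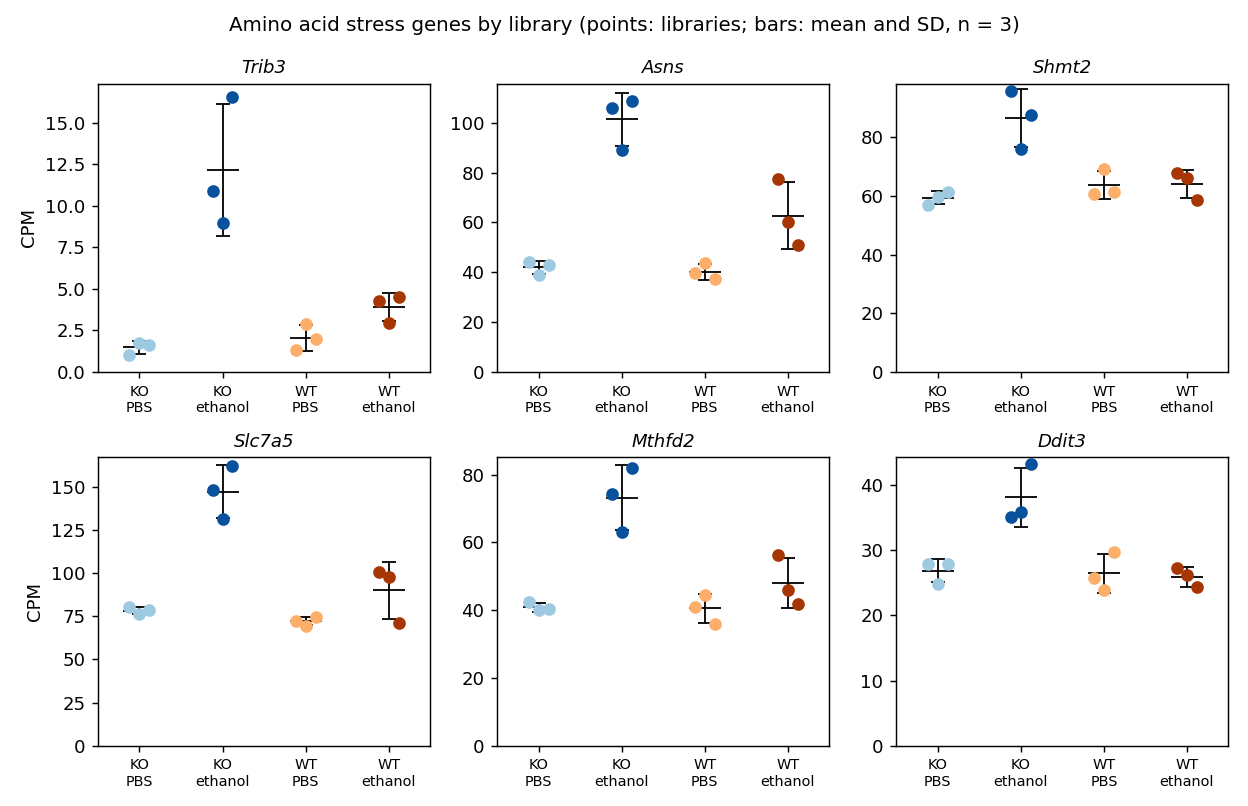
CPM (linear axis from 0) of Trib3, Asns, Shmt2, Slc7a5, Mthfd2 and Ddit3 in each of the 12 libraries, with each group's mean and SD (n = 3). In each panel the 3 knockout ethanol libraries lie above the other 9.

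Over the list of ATF4 and amino acid stress genes, 28 were tested and 23 had an interaction above 0, against 55.9% of all genes. The median interaction was 0.27, beside 0.02 over all genes, with a median ethanol change of 0.05 in wild type and 0.33 in the knockout. An unadjusted interaction p under 0.05 was reached by 8 members in the higher direction (0.92% of all genes) and by 1 in the lower direction (1.06% of all genes). In the knockout 8 members were called as higher with ethanol (0.964% of all genes were) and 1 as lower (0.903%). In wild type 1 was called as higher (0.556%) and 1 as lower (0.705%). The mean log2 CPM of the list was 5.18, 5.12 and 5.28 in the knockout with ethanol and 4.70 to 4.94 in the other 9 libraries. Atf4 itself had an interaction of 0.23, and Sesn2, an inhibitor of mTORC1 signalling, one of 0.35. The knockout rise of Sesn2 was 0.69 log2, and its call was lost without library 1, 2, 3 or 6. Not every target moved this way. Slc7a11, the cystine transporter that feeds glutathione synthesis, had an interaction of -0.69 (SE 0.31). Its CPM was 6.18, 5.70 and 4.17 in the knockout with PBS and 3.31, 3.03 and 3.80 with ethanol, where the ethanol libraries lay below the PBS libraries. The wild-type libraries overlapped. Of all genes, 16% had all knockout ethanol libraries below all knockout PBS libraries. Pycr1, an enzyme of proline synthesis, fell in both genotypes, by 0.87 log2 in wild type and 0.96 log2 in the knockout, calls lost without any of libraries 1, 2, 3 and 8 to 12 and without any of 1, 2, 3 and 6. The median of the list lay above 0 in all 23 alternatives, from 0.11 without the 3 libraries highest in muscle to 0.33 without library 10. Leaving out library 9 gave 0.17. These fits share libraries, and the list was chosen with earlier results of these data known, so the kept sign is no independent support. With the muscle score as a covariate 22 of the 28 were above 0, against 56.8% of all genes.

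ATF4 binds with C/EBP proteins to a composite element written TGATGNAA. The RefSeq promoter windows on GRCm38.p6 (250 bases before to 50 bases after each annotated start) were searched for it on both strands, and 26 of the 28 tested genes had a window. It was found for 8 of these genes (30.8%), beside 1219 of all 27025 genes with a window (4.51%). Counted by window, since a gene with several starts has several, it was in 1304 of 32851 (3.97%). Windows of 30 bases around the match are shown for 3 genes whose interaction lay above 0 and for Slc7a11, which had the same element and an interaction below 0. Capitals mark the match, and each sequence is on the strand of its gene.
Trib3: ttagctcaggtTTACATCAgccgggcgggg
Asns: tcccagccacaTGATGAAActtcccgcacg
Chac1: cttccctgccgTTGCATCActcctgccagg
Slc7a11: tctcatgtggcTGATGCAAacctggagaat
Positions count from the RefSeq start, which for Trib3 and Asns is not the GENCODE start given by the gene coordinates above. The Trib3 window is chr2:152344028-152344057 (minus strand), with the match on the reverse strand of the gene from position 15 after the start. The Asns window is chr6:7693214-7693243 (minus strand), with the match from position -23. The Chac1 window is chr2:119351038-119351067 (plus strand), with the match reversed from position -193. The Slc7a11 window is chr3:50443661-50443690 (minus strand), with the match from position -66 and another, reversed, from position -47. Chac1, which degrades glutathione, had an interaction of 0.76 (SE 0.68), which was 0.04 without library 9 and -0.36 without the 3 libraries highest in muscle. The other genes with a match were Slc1a4 (0.49), Vldlr (0.13), Pycr1 (-0.09) and Nupr1 (-0.17), and Vldlr and Pycr1 changed sign with some libraries left out. Shmt2, Mthfd2, Slc7a5 and Ddit3 had no match in their windows. A match of letters is a description of the window, and members with and without it lay on both sides of 0.

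Aminoacyl-tRNA synthetases, which charge tRNAs with amino acids and several of which are ATF4 targets, all had an interaction above 0 (17 of 17 tested, median 0.11). In the knockout 11 of them had an ethanol change above 0, and 3 were called as higher: Cars by 0.50 log2, Nars by 0.33 log2 and Sars by 0.45 log2. Of all genes 0.964% were called as higher in the knockout. In wild type 0 synthetases were called, where 0.556% of all genes were called as higher. These calls were lost without any of libraries 1, 2, 3, 4 and 6 and, for Nars, without library 11 as well. Gars had 99.5, 102 and 105 CPM in the knockout with PBS and 119, 115 and 119 CPM with ethanol, while its wild-type libraries overlapped between 95.8 and 113 CPM. Its interaction was 0.26 (SE 0.09), and 16.3% of all genes had all knockout ethanol libraries above all knockout PBS libraries. Of the chaperones and folding enzymes of the unfolded protein response, 19 of 21 had an interaction above 0 (median 0.12), but from a different starting point. Their median ethanol change was -0.17 in wild type and -0.06 in the knockout. Sdf2l1, a folding factor of the endoplasmic reticulum, went from 38.9, 39.8 and 35.7 CPM to 27.8, 29.6 and 28.9 CPM in wild type, a fall of 0.41 log2 (SE 0.07, edgeR adjusted p 0.0298) that was called with 1 library left out only where that library was 4, 5, 6 or 7. In the knockout it went from 32.3, 34.7 and 32.6 CPM to 29.6, 29.3 and 33.3 CPM, with overlap, and its interaction was 0.30 (SE 0.10). Hyou1, a chaperone of the same compartment, had an interaction of 0.20. The median of the synthetases was -0.01 and that of the unfolded protein response 0.05 without the 3 libraries highest in muscle.

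Other genes high in the ranking had few features in common with these lists. Tsfm, the mitochondrial translation elongation factor Ts, had 16.9, 18.7 and 19.6 CPM in wild type with PBS and 13.9, 13.6 and 13.3 CPM with ethanol, and 15.04 to 16.6 CPM in all 6 knockout libraries. It fell in wild type by 0.44 log2 (SE 0.08, edgeR adjusted p 0.0300), and the interaction was 0.45 (SE 0.11). Timm8a1, a chaperone of mitochondrial protein import, had the same form: 5.72, 5.82 and 6.48 CPM against 4.38, 4.04 and 3.37 CPM in wild type, and 4.48 to 4.93 CPM in the knockout. Its interaction was 0.65 (SE 0.18). With 1 library left out, the wild-type call of Tsfm held only without library 5, 6 or 7 and that of Timm8a1 only without 6 or 7. In contrast Pfkl, the liver-type phosphofructokinase of glycolysis, went from 54.0, 54.8 and 53.02 CPM to 62.4, 61.9 and 64.6 CPM in the knockout, with 56.0 to 60.8 CPM in wild type (interaction 0.25, SE 0.07). It rose in the knockout by 0.22 log2, a call that held only without library 7, 8, 9 or 12. Bcl3, a nuclear partner of NF-kB, had an interaction of 0.61 (SE 0.17), and Rab24, a small GTPase, one of 0.29 (SE 0.08). Prok2, a secreted chemokine-like peptide, had 1.27, 0.938 and 0.703 CPM in the knockout with PBS and 2.04, 1.93 and 2.45 CPM with ethanol, and 1.29 to 3.47 CPM in wild type with overlap (interaction 1.57, SE 0.44). Npas2, a clock transcription factor, had an interaction of 1.32 (SE 0.38) at 0.784 to 2.70 CPM. The immediate early genes Junb (0.30, SE 0.09) and Ier2 (0.27, SE 0.10) rose in the knockout by 0.36 and 0.40 log2 and were not called in wild type. Their calls were lost without any of libraries 1, 2, 3 and 6, and that of Junb without library 5 too. The non-coding Map2k3os (0.96, SE 0.24) lies antisense to another gene, and since no source used here states whether counting used strand, its reads cannot be told from those of that gene.

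Osteoclast genes lay on the other side. Ctsk (GRCm38 chr3:95499256-95509362), cathepsin K, had 413, 454 and 456 CPM in wild type with PBS and 927, 619 and 622 CPM with ethanol. In the knockout it had 394, 550 and 480 CPM with PBS and 577, 416 and 484 CPM with ethanol. The wild-type groups did not overlap and the knockout groups did. The ethanol difference was 0.71 in wild type (SE 0.18, edgeR adjusted p 0.0838) and 0.05 in the knockout (SE 0.18, adjusted p 0.944), and the interaction was -0.66 (SE 0.25, 95% interval -1.21 to -0.11). Acp5 (chr9:22126727-22135711), tartrate-resistant acid phosphatase, had 405, 460 and 453 CPM and then 876, 606 and 535 CPM in wild type, and 407 to 580 CPM in all knockout libraries (interaction -0.53, SE 0.24). Oscar (chr7:3609813-3616157), a costimulatory receptor of osteoclast precursors, had 6.24, 6.51 and 7.08 CPM in wild type with PBS and 12.2, 8.17 and 9.32 CPM with ethanol. In the knockout it had 7.52, 8.40 and 9.46 CPM and then 8.35, 6.72 and 7.37 CPM. Its interaction of -0.76 (SE 0.22, 95% interval -1.24 to -0.28) was among the 12 lowest ranked by p. Dcstamp, needed for fusion of precursors, had an interaction of -0.76 (SE 0.35). Library 10 had the highest value among all libraries for Ctsk, Acp5, Oscar and Dcstamp. Calcr (chr6:3685680-3764714), the calcitonin receptor, differed from these in that it rose in both genotypes. It had 1.13, 1.29 and 1.81 CPM in wild type with PBS and 6.87, 7.37 and 7.06 CPM with ethanol, and 0.976, 1.84 and 2.36 CPM against 4.97, 4.12 and 6.72 CPM in the knockout. The rise was 2.33 log2 in wild type (SE 0.30, edgeR adjusted p 0.0109) and 1.62 log2 in the knockout (SE 0.29, adjusted p 0.0200), and the interaction was -0.72 (SE 0.41). The knockout call was lost without library 1, 2 or 6, and the wild-type call in limma-voom with quality weights.

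All 14 osteoclast genes had an interaction below 0, against 44.1% of all genes, with a median of -0.33. Their median ethanol change was 0.33 in wild type and 0.08 in the knockout. In wild type all ethanol libraries lay above all PBS libraries for 9 of the 14 (7.32% of all genes), and in the knockout for 4 (16.3% of all genes). Unadjusted p for the interaction was under 0.05 for 3 genes in the lower direction (1.06% of all genes) and for 0 in the higher direction (0.92%). One library weighed on this result. Without library 10, the wild-type ethanol library with the least muscle RNA, the median interaction was -0.12, with Ctsk at -0.44, Acp5 at -0.30 and Dcstamp at -0.43. Without library 2 the median was -0.20. Within each wild-type group the share of counts in osteoclast genes was highest where the muscle share was lowest. It was 0.553%, 0.442% and 0.374% of counts in libraries 10, 11 and 12, whose muscle shares were 0.154%, 2.15% and 4.10%. The knockout groups did not follow this. Among knockout PBS libraries, library 1 was lowest in both muscle (0.363%) and osteoclast genes (0.397%). Among knockout ethanol libraries, library 6 was lowest in muscle (0.738%) and library 4 highest in osteoclast genes (0.464%). With the muscle score as a covariate the median was -0.29, and without the 3 libraries highest in muscle it was -0.43. The list of secreted and receptor regulators of osteoclast formation had a median of 0.00 (8 of 15 above 0), and macrophage genes one of -0.07 (3 of 12 above 0).

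Osteoblast genes also had lower interaction values, with median ethanol changes below 0 in both genotypes. Of 16 tested, 15 had an interaction below 0 (median -0.33), with a median ethanol change of -0.51 in wild type and -0.86 in the knockout. Averaged over genotype 9 of the 16 were called as lower, where 5.81% of all genes were. Runx2 (chr17:44495987-44814797), the transcription factor that sets osteoblast identity, had 109, 118 and 110 CPM in the knockout with PBS and 83.3, 91.3 and 81.9 CPM with ethanol. In wild type it had 108, 95.2 and 103 CPM and then 106, 93.2 and 89.8 CPM, with overlap. It fell by 0.39 log2 in the knockout (SE 0.08, edgeR adjusted p 0.0270), where the wild-type difference was -0.08 (SE 0.08, adjusted p 0.669), and the interaction was -0.31 (SE 0.11). The call was lost without library 1, 2, 3, 4 or 6. All knockout ethanol libraries lay below all knockout PBS libraries for 16% of all genes. Col1a1, the main collagen chain of bone, had 16415, 17553 and 19295 CPM in the knockout with PBS and 8142, 11271 and 4803 CPM with ethanol. In wild type it had 10691, 11496 and 13606 CPM and then 10252, 10044 and 5197 CPM. The knockout PBS libraries lay above all others, PBS and ethanol libraries did not overlap in either genotype, and the interaction was -0.65 (SE 0.45, 95% interval -1.65 to 0.35), with Col1a2 at -0.63. Library 6 had the lowest Col1a1 in the knockout, and without it the median of the list was -0.19. Bmp8a was the exception of the list, at 0.35. Of osteocyte genes 11 of 15 were above 0 (median 0.07, but -0.04 without library 5): Sost, the Wnt inhibitor sclerostin, had an interaction of 0.55 (SE 0.42) and Dmp1, a matrix protein, one of 0.31 (SE 0.25), both with overlap in each genotype. Without library 5 Sost was 0.28 and Dmp1 0.13, without library 7 Dmp1 was 0.19, and without the 3 libraries highest in muscle they were 1.12 and 0.65.

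**Figure D3:**
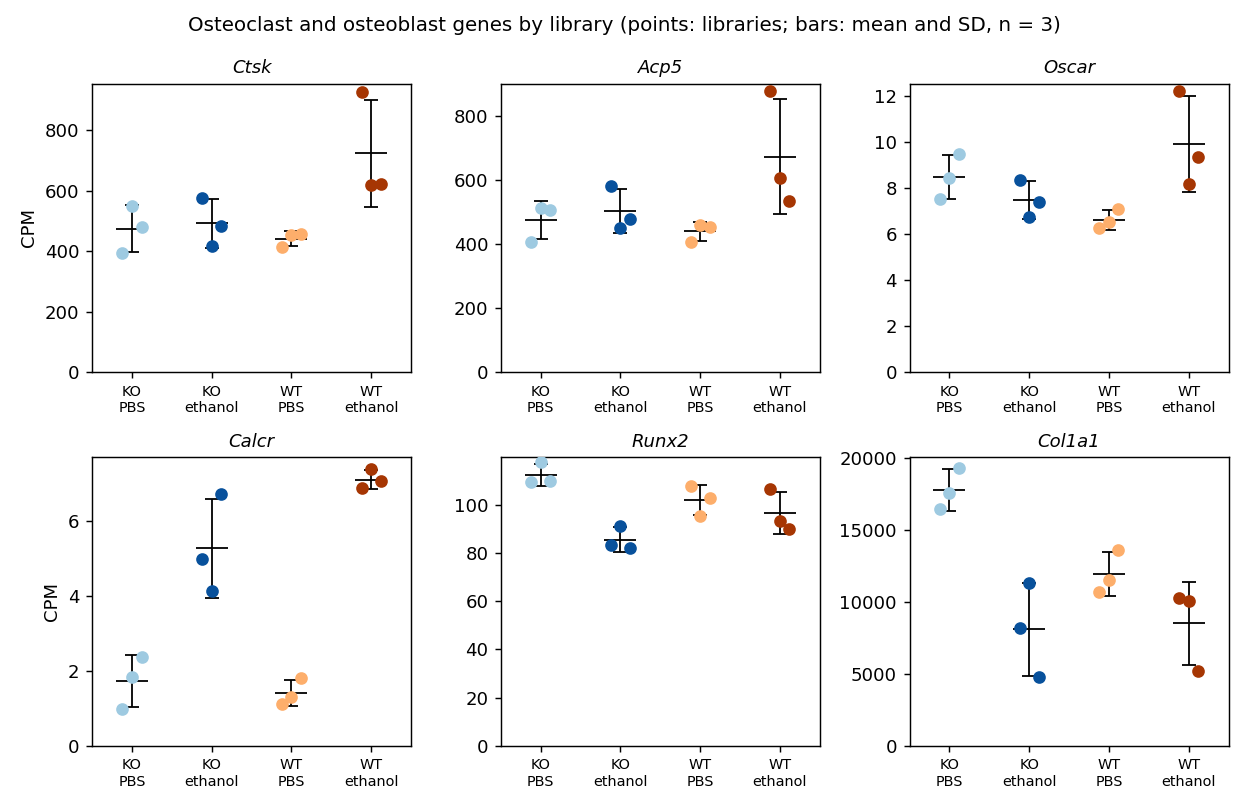
CPM (linear axis from 0) of the osteoclast genes Ctsk, Acp5, Oscar and Calcr and the osteoblast genes Runx2 and Col1a1 in each library, with each group's mean and SD (n = 3). Ctsk is above 600 CPM only in wild type with ethanol, Calcr is higher with ethanol in both genotypes, and Runx2 with ethanol in the knockout lies below all PBS libraries.

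The other genes lowest in the ranking were mostly expressed at low levels. Fmn1, an actin-nucleating formin, had 8.94, 7.91 and 8.57 CPM in wild type with PBS and 11.7, 12.7 and 10.6 CPM with ethanol, and 9.84 to 12.0 CPM in all knockout libraries (interaction -0.51, SE 0.15). Cmtm4, a membrane protein of the MARVEL family, had 36.8, 30.4 and 35.2 CPM and then 50.1, 45.7 and 41.0 CPM in wild type, and 38.2 to 42.9 CPM in the knockout (interaction -0.41, SE 0.13). It rose in wild type by 0.42 log2 (SE 0.09, edgeR adjusted p 0.0492), a call that with 1 library left out held only without library 7 or 12. In both genes the wild-type PBS libraries were the lowest of all. Cd300ld3, a myeloid receptor gene of a family of close copies, had 1.56, 2.08 and 1.49 CPM in the knockout with PBS and 0.863, 1.01 and 1.10 CPM with ethanol (interaction -1.07, SE 0.28). Its wild-type ethanol libraries, at 1.34, 1.22 and 1.21 CPM, lay above the PBS libraries at 1.09, 1.09 and 0.926 CPM. Rgs9, a regulator of G protein signalling, had the lowest estimate among them at -2.02 (SE 0.61), from 0.497 to 2.40 CPM. Spire2 (-1.35), the lens crystallin gene Cryba4 (-1.13), Adgrb2 (-1.02), Zfp184 (-0.85), Ccdc74a (-0.64), Zfp438 (-0.54) and Tmem175 (-0.32), a lysosomal ion channel, complete the 12. The interaction of each of these genes kept its sign in each of the up to 23 alternatives compared. The genes were chosen by interaction p in the same libraries, which favours a kept sign, so this is no independent support.

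Energy metabolism and muscle genes had higher interaction values, and these moved with muscle RNA. The mean muscle score (log2) differed by -0.78 between ethanol and PBS in wild type and by -0.03 in the knockout, an interaction of 0.75. Nuclear genes of oxidative phosphorylation were above 0 in 29 of 29 (median 0.28), mitochondrially encoded genes in 12 of 13 (median 0.46), glycolysis and hypoxia genes in 23 of 24 (median 0.25) and muscle genes in 15 of 18 (median 0.25). mt-Co1, a cytochrome oxidase subunit, had 24522 and 20499 CPM in libraries 8 and 9 and 19776 CPM in library 12, and 9236 to 11023 CPM in the other 9. Myh2, a fast myosin heavy chain, had 767, 519 and 458 CPM in the same 3 libraries and 25.4 to 115 CPM elsewhere. Its interaction of 0.91 had an SE of 1.61. Cyc1, cytochrome c1, had an interaction of 0.40 (SE 0.33). With the muscle score as a covariate the medians became 0.13, 0.16, 0.14 and -0.03 in the order given. The last is that of the muscle genes, which make up the score, so its move follows from the fit. Without libraries 8, 9 and 12, chosen by the same genes, the medians became -0.20, -0.26, 0.08 and -1.82. That fit leaves 1 wild-type PBS library, library 7, which is then assumed to vary like the other groups. Fatty acid oxidation genes followed the same course (0.18, then 0.07 and -0.20), and so did cytosolic heat shock genes (0.16, then 0.10 and -0.07).

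**Figure D4:**
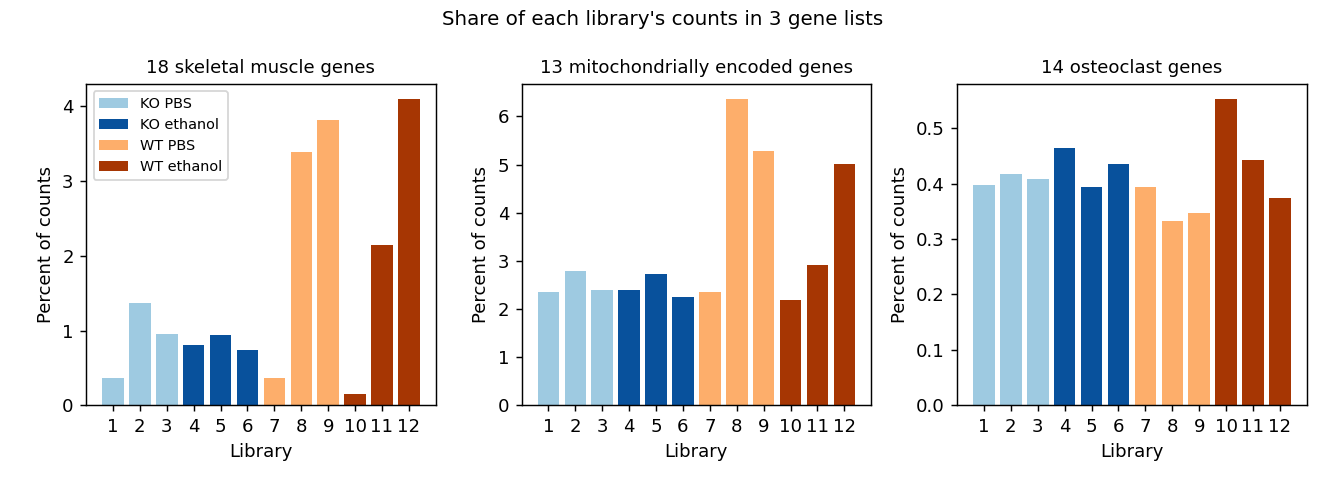
Percent of each library's counts (bars from 0) in 18 skeletal muscle genes, 13 mitochondrially encoded genes and 14 osteoclast genes, by library and group. Libraries 8, 9 and 12 are highest in the first 2 panels, and library 10 is lowest in muscle genes and highest in osteoclast genes.

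Most genes with an unadjusted interaction p under 0.05 in edgeR still had one with the muscle score as a covariate. With this covariate, 0 genes (0%) were called for the interaction in edgeR and 498 (2.74%) had an unadjusted p under 0.05. These held 311 of the 359 genes of the fit without it (86.6% of the one list and 62.4% of the other), all with the same sign, and 1825 of all genes tested changed sign. Trib3 was 2.02 with the covariate, Asns 0.71, Shmt2 0.54, Slc7a5 0.64, Mthfd2 0.65, Oscar -0.72, Ctsk -0.61 and Runx2 -0.29. The median of the ATF4 list was 0.29, of the synthetases 0.12 and of osteoblast genes -0.33. Genes that came forward with the covariate on the lower side were Car3 (-1.14, from -0.93 without it), a carbonic anhydrase of muscle and fat, Ky (-1.03, from -0.75), a muscle protein, Auts2 (-0.86, from -0.66) and Sorbs2 (-0.50, from -0.39).

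**Figure D5:**
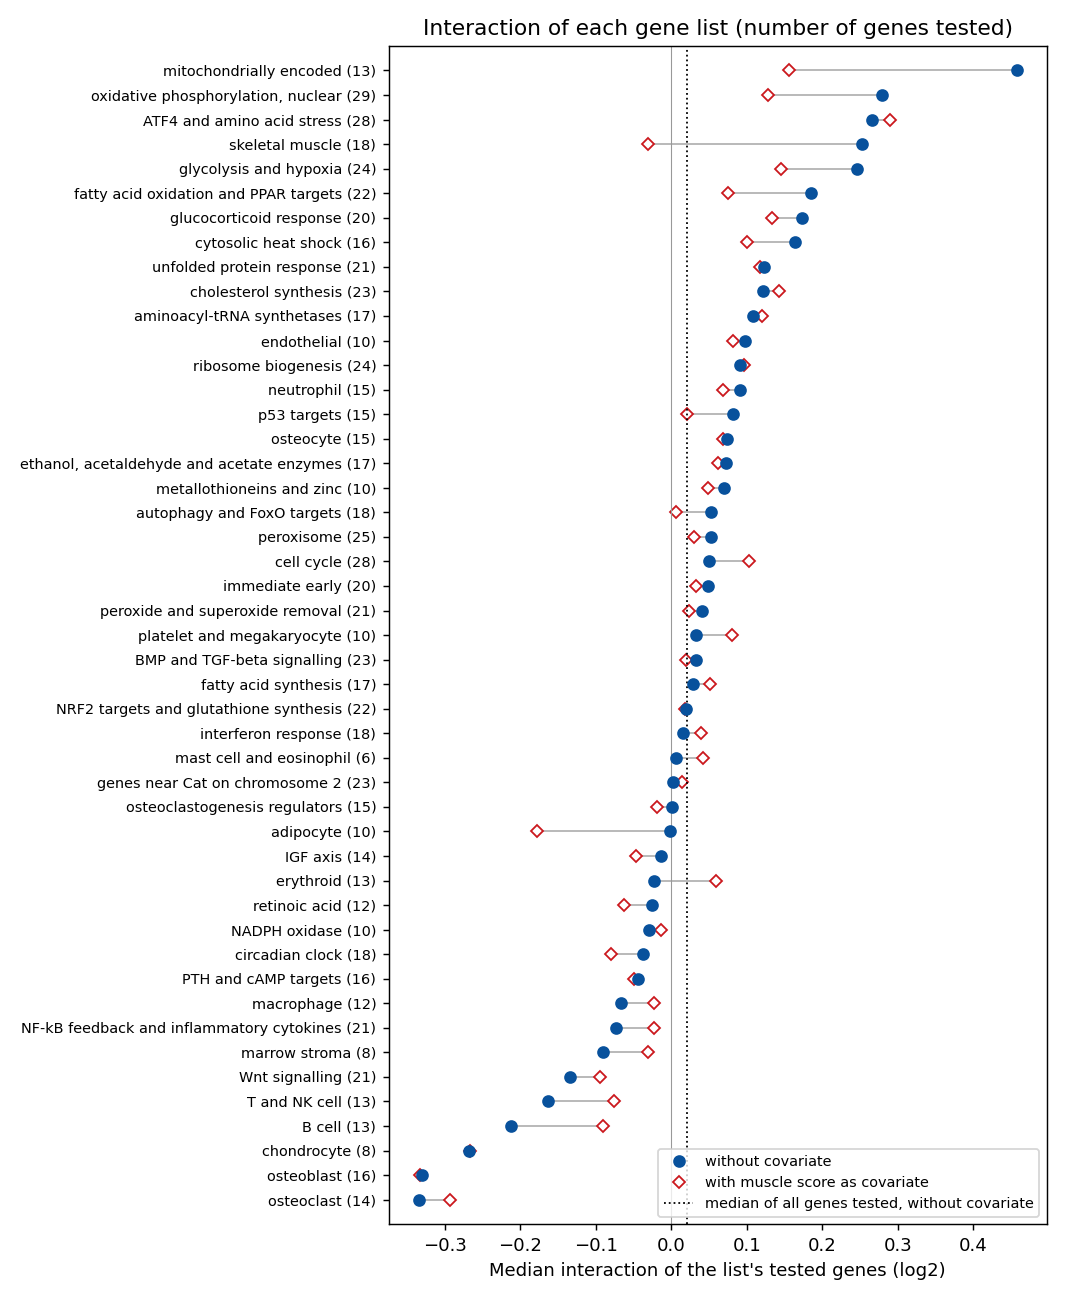
Median interaction (log2) of each of the 47 gene lists, as circles without and as open diamonds with the muscle score as covariate, with the number of genes tested. The dotted line is the median of all genes tested (0.02). The muscle, mitochondrial and oxidative phosphorylation lists shift towards the line with the covariate, and the ATF4, osteoblast and osteoclast lists shift little. The muscle list makes up the score, so its shift follows from the fit.

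Cholesterol synthesis genes, which are repressed when cells hold enough sterol, had lower levels with ethanol. Averaged over genotype 13 of 23 were called as lower, where 5.81% of all genes were. In wild type 9 were called as lower (0.705% of all genes) and in the knockout 3 (0.903%). The median changes were -0.41 in wild type and -0.31 in the knockout. All ethanol libraries lay below all PBS libraries for 13 of the 23 in wild type (9.06% of all genes) and for 13 in the knockout (16% of all genes). The interaction was above 0 in 20 of 23 (median 0.12, and 0.05 without library 7). Sqle, squalene epoxidase, had 20.4, 18.4 and 17.5 CPM in wild type with PBS and 12.4, 11.6 and 12.2 CPM with ethanol, and 18.7, 17.6 and 17.1 CPM against 15.5, 13.3 and 14.1 CPM in the knockout. It fell in wild type by 0.64 log2 (SE 0.09, edgeR adjusted p 0.0109), a call kept in every alternative that left out a library, and the interaction was 0.32 (SE 0.12). Lss, lanosterol synthase, had an interaction of 0.30. Of ribosome biogenesis genes 15 of 24 were called as lower in the averaged test (5.81% of all genes were). Of the 24, 23 had an interaction above 0 (55.9% of all genes), with a median of 0.09. Glucocorticoid response genes had median ethanol changes of 0.61 in wild type and 0.74 in the knockout. Of the 20, 8 were called as higher in the averaged test (5.02% of all genes were) and 15 had an interaction above 0 (median 0.17). Fkbp5, a chaperone of the glucocorticoid receptor, had 68.9, 81.1 and 79.4 CPM in the knockout with PBS and 171, 202 and 259 CPM with ethanol, and 76.6, 98.9 and 77.7 CPM against 87.9, 163 and 222 CPM in wild type. Library 10 lay within the wild-type PBS range, and the interaction of Fkbp5 was 0.56 (SE 0.41), 0.27 without library 10 and 0.87 without library 12. Its knockout rise of 1.46 log2 was called with 1 library left out only where that was library 10 or 12. Without the 3 libraries highest in muscle the medians of the ribosome biogenesis and glucocorticoid lists were -0.04 and -0.08, and that of cholesterol synthesis was 0.26.

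Enzymes that handle ethanol and peroxide, like all genes tested, had no called interaction. Cat (chr2:103453849-103485160) itself had 70.1, 65.9 and 66.5 CPM in the knockout with PBS, 69.0, 74.2 and 71.6 CPM in the knockout with ethanol, and 128 to 175 CPM in wild type. Knockout libraries lay below all wild-type libraries, with transcript still counted in each. The ethanol difference was 0.08 in each genotype (SE 0.10 in both), and the interaction was 0.0019 (SE 0.14, 95% interval -0.31 to 0.31). Of the enzymes of ethanol, acetaldehyde and acetate, 12 of 17 were above 0 (median 0.07) and 0 had an unadjusted p under 0.05. Of all genes 1.98% had one, so with so few members a count of 0 is near that share. Aldh2, the mitochondrial enzyme that clears acetaldehyde, had 516 to 719 CPM over all libraries and an interaction of 0.07 (SE 0.16, 95% interval -0.28 to 0.42). Acss2, which makes acetyl-CoA from acetate, had 21.3, 19.8 and 20.8 CPM in the knockout with PBS and 23.6, 25.0 and 22.0 CPM with ethanol, with overlap in wild type (interaction 0.25, SE 0.13). All knockout ethanol libraries lay above all knockout PBS libraries for 16.3% of all genes. Cyp2e1, the cytochrome that oxidises ethanol in liver, had 0.217, 0.868 and 0.331 CPM in the knockout with PBS and 1.76, 0.882 and 2.85 CPM with ethanol, so these groups just failed to overlap. In wild type it had 0.121, 7.86 and 5.32 CPM and then 0.138, 4.98 and 8.58 CPM, lowest in the libraries lowest in muscle RNA, and the interaction was 1.89 (SE 1.90). Of the genes that remove peroxide and superoxide, 15 of 21 were above 0 (median 0.04), and 0 had an unadjusted p under 0.05 (1.98% of all genes). The glutathione peroxidase Gpx8 was the lowest at -0.31 (SE 0.23) and superoxide dismutase Sod2 the highest at 0.28, which was -0.23 without the 3 libraries highest in muscle. NRF2 targets (14 of 22 above 0, median 0.02), peroxisome genes (20 of 25, median 0.05) and NADPH oxidase genes (4 of 10, median -0.03) had medians near that of all genes. Without the 3 libraries highest in muscle the medians for peroxide, NRF2 and peroxisome genes were -0.12, -0.03 and -0.04. Genes near Cat on chromosome 2, 23 of them tested, had a median of 0.00.

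Of the remaining lists, B cell genes were below 0 in 13 of 13 (median -0.21) and T and NK cell genes in 12 of 13 (median -0.16). With the muscle score as a covariate these medians were -0.09 and -0.08, and without library 10 they were 0.05 and -0.00066. Neutrophil genes were above 0 in 14 of 15 (median 0.09), cell cycle genes in 27 of 28 (median 0.05), of which the first was -0.08 without library 8 and the second -0.05 without library 12. Chondrocyte genes were above 0 in 2 of 8 (median -0.27), and with 1 library left out their median ran from -0.60 (without library 9) to -0.07 (without library 6). The lists of interferon, NF-kB, p53, Wnt, BMP, IGF, retinoic acid, clock, PTH, fatty acid synthesis, metallothionein, immediate early and autophagy genes, and the remaining cell type lists, had medians between -0.13 and 0.10. Their members, like all genes tested, gave 0 calls for the interaction. Slc2a1, the glucose transporter of many tissues, had an interaction of 0.43 (SE 0.14) within the glycolysis list, and Erfe, the erythroblast hormone that lowers hepcidin, one of 0.94 (SE 0.66). Erfe had 2.10, 0.972 and 1.49 CPM in the knockout with PBS and 14.9, 4.08 and 8.62 CPM with ethanol, and 1.21, 1.79 and 1.67 CPM against 6.78, 4.70 and 3.21 CPM in wild type, so all ethanol libraries lay above all PBS libraries. The interaction of Erfe was 0.40 without library 4 and 0.35 without the 3 libraries highest in muscle.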

How the data were processed

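Per the file headers and values, the authors deposited whole-number counts per gene (49315 genes, 12 libraries). Per the submitters' processing notes, the tools were STAR 2.5.2b, Trimmomatic 0.36 and featureCounts with Subread 1.5.2, on GRCm38. Whether counting used strand, and the annotation release, were not given in the sources used here. The normalized signal that the authors deposited, counts divided by a constant per library, was used for symbols and in limma-trend. Coordinates came from GENCODE M21 on GRCm38.

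Low genes were removed by filterByExpr (count 10, total 15), and TMM factors scaled the libraries. One edgeR 4.0.16 quasi-likelihood model (R 4.3.3) with 1 coefficient per group gave all contrasts, with Benjamini-Hochberg adjustment over 18161 genes. Every adjusted p is edgeR's unless another tool is named. The SE is the log2 change over the square root of F. The muscle score is the mean log2 CPM (prior count 2) of 18 muscle genes, centred. The model was tested on simulated data. Those counts had less spread between libraries than these data and no differences in muscle RNA, so that test gives no measure of power here. Alternatives were other factors (RLE, upper-quartile), filters and tools (DESeq2 1.42.0, limma 3.58.1), muscle and marrow covariates, and leaving out libraries. Fits on 1 genotype alone and DESeq2 without its mean-count filter were added after seeing the data.

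Comparisons and the 47 lists (757 genes tested) were chosen with earlier results of these data known. Named genes are the 12 per direction with the smallest interaction p (mean CPM at least 1, no predicted genes, pseudogenes or receptor segments), up to 4 per list, Cat and the enzyme lists, the largest called ethanol changes, 6 per direction from the fit with the muscle covariate and the 4 highest muscle genes. List members outside this rule (Atf4, Slc3a2, Chac1, Slc1a4, Vldlr, Pycr1, Nupr1, Sars) were chosen after their values were seen.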

Additional observations from a re-analysis of the deposited data

How the results depend on the processing

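No paired analysis was possible because the labels number the libraries 1 to 12, so no number is shared between groups. The interaction count was 0 in every setting except DESeq2, which gave 1 with and 1 without its filter on mean counts, and it ran from 0 to 0 over the 12 fits that left out a library, with the muscle covariate too. The wild-type ethanol count of 229 became 731 with DESeq2 (701 without its filter), 138 with limma-voom, 23 with quality weights, 507 with the muscle and 481 with the marrow covariate, 37 without the 3 libraries highest in muscle, 591 at an adjusted p under 0.10 and 4 in wild-type libraries alone, and ran from 35 to 320 with a library left out. The knockout count of 339 became 986 (950), 2291 with quality weights, 865, 674, 1342, 861 and, in knockout libraries alone, 1677, and ran from 52 to 568. The averaged count of 1967 became 3111 at an adjusted p under 0.10 and ran from 1040 to 2152. Same-sign shares were 100% and 94.3% with quality weights and 94.6% and 93.1% without the 3 libraries (wild-type calls first), and ran from 96.2% to 100% and from 97.5% to 100%. The cause of these shifts was not tested.

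Of 79 interactions of named genes, 66 kept their direction in each of the up to 23 alternatives compared. Many of these genes were chosen on the interaction in the same libraries, which favours a kept direction, so this is no independent support. Without the 3 libraries highest in muscle, Chac1 became -0.36, Cyp2e1 -2.43, Sod2 -0.23, Vldlr -0.15, Myh2 -0.42, Mb -0.51, Acta1 -1.80, Cyc1 -0.12, mt-Co1 -0.13 and Cat -0.33. With the muscle covariate Acta1, whose counts enter the muscle score, was -0.0082, and Vldlr was -0.032. Cat was -0.0071 with RLE and -0.036 with upper-quartile factors, -0.00026 without a filter, -0.0063 with the 5 CPM filter, -0.0076 with DESeq2, -0.0064 with limma-voom, -0.015 with limma-trend and -0.0076 with the muscle covariate. With a library left out, values ran from -0.31 to 1.20 for Acta1, from -0.044 to 0.18 for Aldh2, from -0.12 to 0.11 for Cat, from -1.30 to 0.075 for Ky, from -0.24 to 0.016 for Pycr1 and from -0.18 to 0.48 for Vldlr, and the knockout ethanol change of Ctsk from -0.077 to 0.17.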
